A study of Mus musculus with 6 samples.

Results

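The genes described here are 40 genes that type I interferon induces, followed in the spleens of 2 mouse crosses. They were taken by symbol: every probe set that the platform annotation ties to exactly 1 gene symbol was kept if that symbol was on the list. This gave 71 probe sets for 38 of the 40 genes, out of 18193 genes with such a probe set on the array. Isg15 and Ifi44 had no probe set with only their own symbol and are not analysed here. Of the 38 genes, 18 had 1 probe set and 20 had several. The spleens came from adult F1 females, 3 of the cross (AKR/J x FVB/NJ)F1 and 3 of the cross (DBA/2J x FVB/NJ)F1. All 6 mice carried 1 set of chromosomes from FVB/NJ, so the crosses differ in the other parent's set, AKR/J or DBA/2J. No infection or interferon treatment is named, and the series asks for differences at baseline. There was 1 Affymetrix array per spleen, and levels are the deposited log2 values. Below, AKR/J F1 and DBA/2J F1 stand for these crosses. Every difference is the AKR/J F1 mean less the DBA/2J F1 mean, in log2 units, so that 1 unit is a doubling and positive values mean a higher level in AKR/J F1 spleens.

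Type I interferons bind a receptor on nearly all nucleated cells. Its kinases JAK1 and TYK2 phosphorylate STAT2, which acts with IRF9 in a complex called ISGF3 that binds interferon-stimulated response elements at the start of its target genes. The products sense viral nucleic acid, cut or modify RNA, block translation and entry, and conjugate the ubiquitin-like protein ISG15. Without infection, low tonic interferon signalling keeps these genes expressed at a basal level in lymphoid organs, where plasmacytoid dendritic cells and macrophages are known sources and responders.

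The response element has a core of paired GAAA blocks. The core was searched as GAAA, any 2 bases and GAAA again, and on the other strand as TTTC, any 2 bases and TTTC, in the RefSeq promoter table of build GRCm38.p6 (250 bases before to 50 after each start, C57BL/6J sequence). A match was held by 12 of the 30 listed genes that have a promoter there (40%), against 1079 of 27025 genes of the table (3.99%). A match is a description of these letters and not a shown binding site. The promoters below belong to the gene with the largest difference in each direction among those whose probe sets agree, Ifit1 and Rsad2, and to listed genes that lie beside each other. They are read 5' to 3' on the strand of the gene, and capitals mark the matches.
Ifit1 (chr19:34640639-34640938, plus strand): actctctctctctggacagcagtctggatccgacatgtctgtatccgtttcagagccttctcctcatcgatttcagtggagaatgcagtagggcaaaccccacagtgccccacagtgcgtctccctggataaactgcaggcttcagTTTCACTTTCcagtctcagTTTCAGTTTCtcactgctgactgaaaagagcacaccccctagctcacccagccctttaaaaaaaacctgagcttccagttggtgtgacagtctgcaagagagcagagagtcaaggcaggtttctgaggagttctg
Ifit3 (chr19:34583279-34583578, plus strand): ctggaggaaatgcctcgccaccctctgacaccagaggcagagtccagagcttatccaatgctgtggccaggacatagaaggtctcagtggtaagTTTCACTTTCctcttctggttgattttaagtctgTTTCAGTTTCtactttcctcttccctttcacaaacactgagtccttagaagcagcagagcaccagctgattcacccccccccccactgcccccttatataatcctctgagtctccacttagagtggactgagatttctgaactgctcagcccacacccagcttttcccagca
Ifit2 (chr19:34550444-34550743, plus strand): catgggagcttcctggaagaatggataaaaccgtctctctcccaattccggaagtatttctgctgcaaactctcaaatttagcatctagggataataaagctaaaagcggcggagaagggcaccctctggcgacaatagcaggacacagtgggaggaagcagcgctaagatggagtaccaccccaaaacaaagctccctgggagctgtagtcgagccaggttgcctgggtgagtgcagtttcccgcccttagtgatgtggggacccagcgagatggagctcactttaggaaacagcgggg
Rsad2 (chr12:26456403-26456702, minus strand): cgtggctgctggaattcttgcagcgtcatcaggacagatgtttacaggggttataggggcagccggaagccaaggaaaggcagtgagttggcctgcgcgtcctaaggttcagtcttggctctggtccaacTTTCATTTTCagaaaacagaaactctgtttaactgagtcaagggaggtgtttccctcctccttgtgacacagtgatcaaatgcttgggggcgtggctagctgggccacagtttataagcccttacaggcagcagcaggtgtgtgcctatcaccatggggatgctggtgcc
Cmpk2 (chr12:26468965-26469264, plus strand): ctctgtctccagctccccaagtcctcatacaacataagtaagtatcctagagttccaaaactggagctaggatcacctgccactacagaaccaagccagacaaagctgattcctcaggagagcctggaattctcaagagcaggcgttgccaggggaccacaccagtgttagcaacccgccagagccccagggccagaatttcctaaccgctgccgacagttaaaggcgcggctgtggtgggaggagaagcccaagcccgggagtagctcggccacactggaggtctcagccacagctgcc
Oas3 (chr5:120777610-120777909, minus strand): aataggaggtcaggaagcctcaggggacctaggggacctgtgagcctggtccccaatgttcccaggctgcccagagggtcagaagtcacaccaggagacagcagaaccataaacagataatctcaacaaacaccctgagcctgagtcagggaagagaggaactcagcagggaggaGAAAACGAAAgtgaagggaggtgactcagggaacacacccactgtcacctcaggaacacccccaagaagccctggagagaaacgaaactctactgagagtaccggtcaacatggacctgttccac
Ifit1 and Ifit3 each held the same pair of matches, TTTCACTTTC and TTTCAGTTTC, 104 and 85 bases before the start in Ifit1 and 156 and 122 bases before it in Ifit3. Rsad2 held TTTCATTTTC 120 bases before its start, and Oas3 held GAAAACGAAA 75 bases before its start. Cmpk2, which lies next to Rsad2, had no match in this window, and neither had Ifit2, next to Ifit3, at either of its 2 starts there. The neighbours Dtx3l, Oasl1 and Oasl2 had no match either. Among listed genes with a promoter there, grouped by the test described below, 4 of 10 higher in AKR/J F1 spleens and 2 of 4 higher in DBA/2J F1 spleens held a match, as did 5 of 13 that did not pass.

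The arrays differed before any comparison in 11 pancreatic acinar genes. Their mean level was 13.82 to 13.88 in AKR/J F1 spleens and 13.25 and 13.64 in DBA/2J F1 replicates 1 and 2. These levels lay near the top of the scale, whose highest value was 14.56. In DBA/2J F1 replicate 3 the mean was 6.13. Where the high pancreatic signal in the other spleen samples came from was not tested. Values without DBA/2J F1 replicate 3 are among those given below with each array left out. That fit keeps only arrays with the high acinar level.

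More of the interferon-stimulated genes were higher in AKR/J F1 spleens than lower, by at most 1 log2 unit, and the few that were lower were led by Rsad2 and Isg20. In limma with Benjamini-Hochberg adjustment over all 45037 probe sets, 19 of the 71 probe sets were higher in AKR/J F1 spleens at an adjusted p under 0.05 (26.8%, against 5.14% of all probe sets). A further 7 were higher in DBA/2J F1 spleens (9.86%, against 5.26% of all probe sets), and 3 of these 7 belong to Rsad2. The other 45 did not pass. By gene, 15 of 38 had calls only toward AKR/J F1 spleens, 4 only toward DBA/2J F1 spleens, 1 (Xaf1) in both directions and 18 none. All probe sets passed the same way in 3 of the 20 genes with several, Rsad2, Trim30a and Sp100. A gene with several probe sets has more chances of a call. The matching shares over all genes were not computed, so these counts by gene have no background beside them. The fitted difference was positive at 53 of the 71 probe sets, with a median of 0.24, whereas 46.8% of all probe sets were positive, with a median of -0.02. Few of the listed probe sets were dim (5 had a mean under 4.33, the 40th percentile of all probe sets). Among all probe sets at or above that percentile, 58.8% were positive, with a median difference of 0.06, beside 74.6% of the listed probe sets. Of those at or above it, 7.86% were called higher in AKR/J F1 spleens and 5.97% higher in DBA/2J F1 spleens. An unadjusted p under 0.05 was reached by 47 of the 71 listed probe sets, and by 30.7% of all probe sets (36.5% at or above that percentile), in either direction. The 3 arrays of AKR/J F1 spleens all lay above the 3 of DBA/2J F1 spleens at 39 of the 71 probe sets (54.9%, against 17.7% of all) and all lay below at 10 (14.1%, against 18.3% of all). In bulk tissue, fewer cells of a type and less RNA per cell cannot be told apart.

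The number of calls toward AKR/J F1 spleens fell when any of 5 of the 6 arrays was left out. It was 4, 9 and 6 when AKR/J F1 replicates 1, 2 and 3 were left out in turn, and 25, 5 and 5 when DBA/2J F1 replicates 1, 2 and 3 were. The share among all probe sets in the same fits was 1.14%, 1.71%, 1.3%, 5.08%, 1.35% and 1.44%, beside 5.63%, 12.7%, 8.45%, 35.2%, 7.04% and 7.04% of the listed probe sets. The count toward DBA/2J F1 spleens was 5 or 6 in each of the 6 fits (7.04% to 8.45%, against 1.08% to 5.57% of all probe sets). The number of positive differences was 51 or 53. Of the 26 called probe sets, 9 passed whichever array was left out: those of Ifit1, Rtp4, Dtx3l and Pml toward AKR/J F1 spleens (1 each), and those of Isg20, Rsad2 (3) and Xaf1 (1) toward DBA/2J F1 spleens. After quantile normalization 12 passed toward AKR/J F1 spleens and 6 toward DBA/2J F1 spleens, beside 1436 and 1755 of all probe sets. The calls lost there were those of Oas3, Zbp1, Parp14, Herc6, Samd9l and Tor3a and both of Sp100 (adjusted p = 0.0579 to 0.111).

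**Figure D1:**
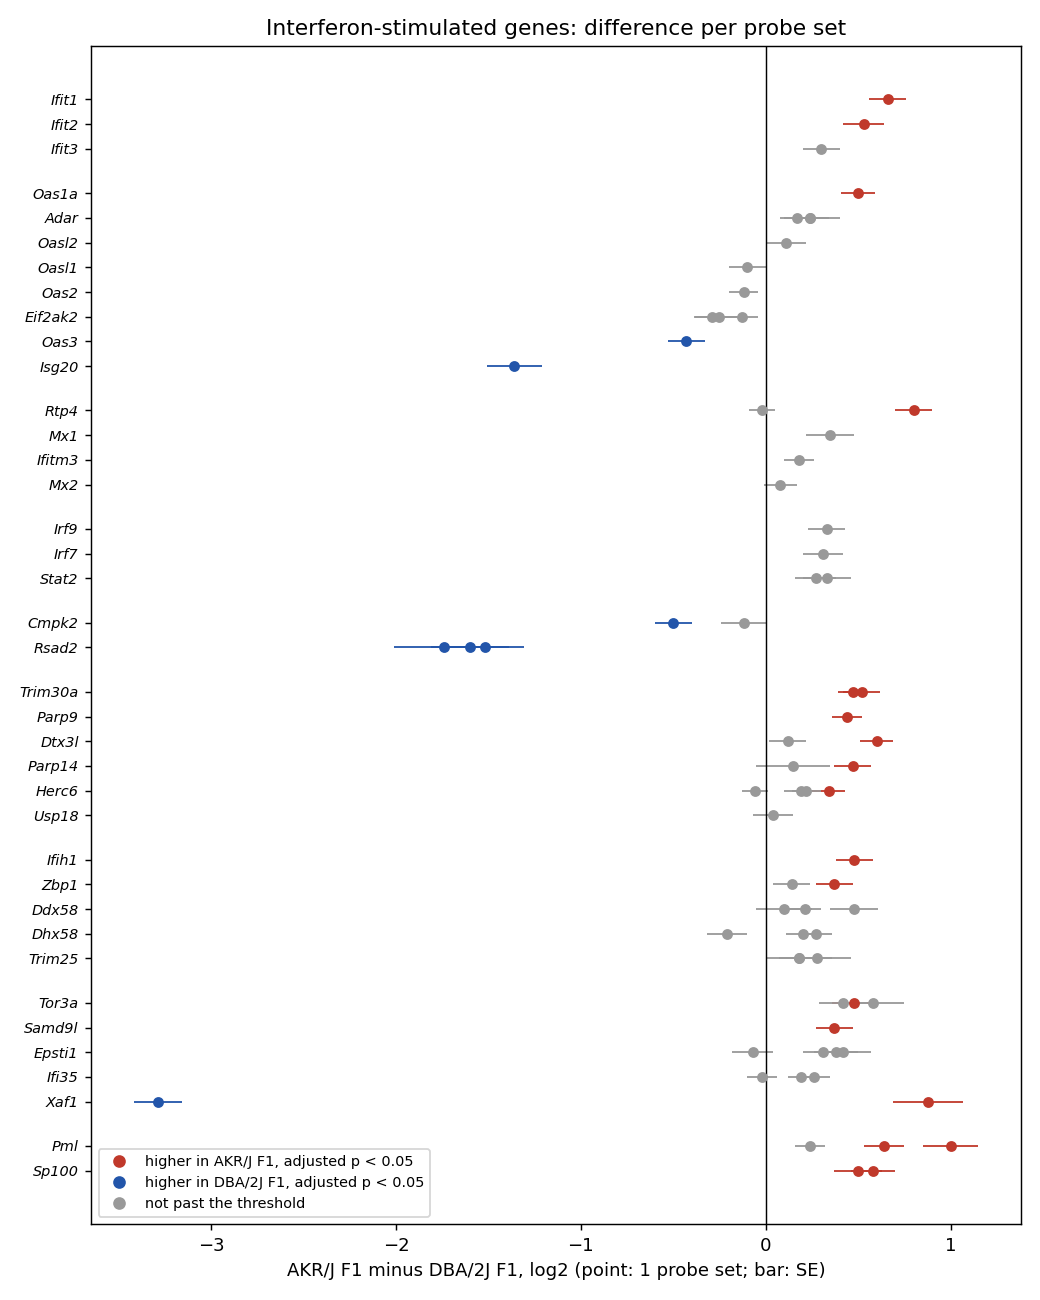
Fitted difference of each of the 71 probe sets (x axis, log2, AKR/J F1 minus DBA/2J F1, bars are the SE from limma), 1 line per gene, grouped by role. Red points are higher in AKR/J F1 spleens and blue points higher in DBA/2J F1 spleens at an adjusted p under 0.05. Most points lie between 0 and 1, and Rsad2, Isg20 and 1 probe set of Xaf1 lie below -1.

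**Figure D2:**
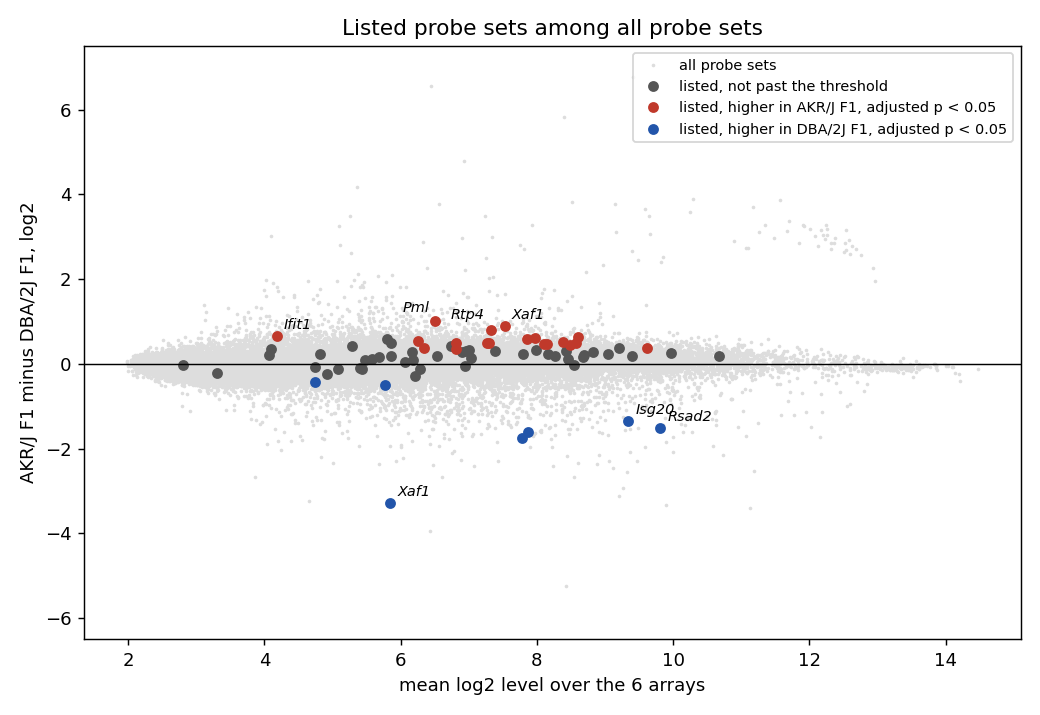
Difference (y axis, log2, AKR/J F1 minus DBA/2J F1) against the mean level over the 6 arrays (x axis, log2) for all 45037 probe sets in grey, with the 71 listed probe sets in colour. The called points toward AKR/J F1 spleens lie between 0.34 and 1.0. Those of Rsad2 and Isg20 lie between -1.36 and -1.74, and the lower point of Xaf1 lies at -3.29. Other probe sets of similar mean level lie lower than those of Rsad2 and Isg20, such as that of Rhd (-2.46 at a mean level of 9.11).

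The IFIT proteins bind viral RNA and block its translation, and the genes of all 3 lie together on chromosome 19. Ifit1 had levels of 4.60, 4.34 and 4.60 in AKR/J F1 spleens, against 3.79, 3.87 and 3.89 in DBA/2J F1 spleens. The crosses did not overlap, and the difference was 0.66 ± 0.10 (SE; adjusted p = 0.00873), the largest among genes called toward AKR/J F1 spleens whose probe sets agree. Ifit1 was a dim probe set, and a difference close to background is compressed on this scale. Ifit2 had levels of 6.70, 6.55 and 6.31 in AKR/J F1 spleens, against 6.04, 6.01 and 5.92 in DBA/2J F1 spleens, a difference of 0.53 ± 0.11 (adjusted p = 0.0262). This call held without AKR/J F1 replicate 3 or DBA/2J F1 replicate 1 and was lost without each of the other 4 arrays (adjusted p = 0.073 to 0.0778). Ifit3 had levels of 7.00, 7.21 and 7.12 in AKR/J F1 spleens, against 6.94, 6.64 and 6.84 in DBA/2J F1 spleens. Its arrays did not overlap either, but the difference of 0.30 ± 0.10 did not pass (adjusted p = 0.0944). Ifit3 has a near-identical copy, Ifit3b, whose transcript its probes may share, as may those of Oas1a with other Oas1 genes.

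Among the enzymes that act on double-stranded RNA and the nucleases, 1 of 12 probe sets of 8 genes was called toward AKR/J F1 spleens (8.33%, against 5.14% of all probe sets), 2 toward DBA/2J F1 spleens (16.7%, against 5.26%) and 9 did not pass, with a median difference of -0.11. The OAS enzymes make the oligoadenylates that activate RNase L. Oas1a had levels of 7.57, 7.49 and 7.51 in AKR/J F1 spleens, against 7.07, 6.88 and 7.12 in DBA/2J F1 spleens (0.50 ± 0.09, adjusted p = 0.018). Oas3 ran the other way, with levels of 4.57, 4.58 and 4.46 in AKR/J F1 spleens, against 5.11, 4.83 and 4.95 in DBA/2J F1 spleens (-0.43 ± 0.10, adjusted p = 0.0328). Both pairs of groups were separated, so that genes of the same cluster on chromosome 5 differed in opposite directions. Neither call was stable: that of Oas1a held without DBA/2J F1 replicate 1 or 3 only (adjusted p up to 0.0655 otherwise), and that of Oas3 was lost without any array (0.0518 to 0.0939). Oas2, beside Oas3, had a difference of -0.12 ± 0.08, and the OAS-like genes Oasl1 and Oasl2 had -0.10 ± 0.10 and 0.11 ± 0.11, none of which passed. The translation kinase gene Eif2ak2, which encodes PKR, had 3 probe sets with values of -0.13, -0.29 and -0.25, the lowest adjusted p being 0.0763. The RNA editing enzyme gene Adar had 3 probe sets with 0.24, 0.17 and 0.24, none past the threshold.

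Isg20, a nuclease that degrades viral RNA, showed the clearest difference of this class. Its levels were 8.80, 8.81 and 8.38 in AKR/J F1 spleens, against 9.80, 10.07 and 10.19 in DBA/2J F1 spleens. All arrays of AKR/J F1 spleens lay about 1 unit or more below all of DBA/2J F1 spleens, and the difference was -1.36 ± 0.15 (adjusted p = 0.00307), 2.57-fold higher in DBA/2J F1 spleens. Its only probe set passed whichever array was left out (adjusted p = 0.00235 to 0.0198).

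Rsad2 encodes viperin, a radical SAM enzyme that makes the chain-terminating nucleotide ddhCTP, and Cmpk2, its neighbour on chromosome 12, encodes a mitochondrial nucleotide kinase. The brightest Rsad2 probe set had levels of 9.57, 8.79 and 8.78 in AKR/J F1 spleens, against 10.75, 10.40 and 10.56 in DBA/2J F1 spleens. AKR/J F1 replicate 1 stood about 0.8 above the others of its cross and still below every DBA/2J F1 array. That difference was -1.52 ± 0.21 (adjusted p = 0.00732). The other probe sets gave -1.60 ± 0.21 and -1.74 ± 0.27 (adjusted p = 0.0067 and 0.0114), so that all 3 agreed, with Rsad2 2.88-fold to 3.33-fold higher in DBA/2J F1 spleens. All 3 passed whichever array was left out. Without AKR/J F1 replicate 1 their adjusted p was 0.00108 to 0.0014, the lowest of the 6 fits. Cmpk2 was lower in AKR/J F1 spleens at 1 of its 2 probe sets, with levels of 5.56, 5.60 and 5.40 in AKR/J F1 spleens, against 5.88, 6.08 and 6.09 in DBA/2J F1 spleens (-0.50 ± 0.10, adjusted p = 0.0219). This call held without DBA/2J F1 replicate 1 and was lost without each other array (0.0503 to 0.0744). The other, slightly brighter Cmpk2 probe set overlapped between the crosses (-0.12 ± 0.12, adjusted p = 0.529).

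**Figure D3:**
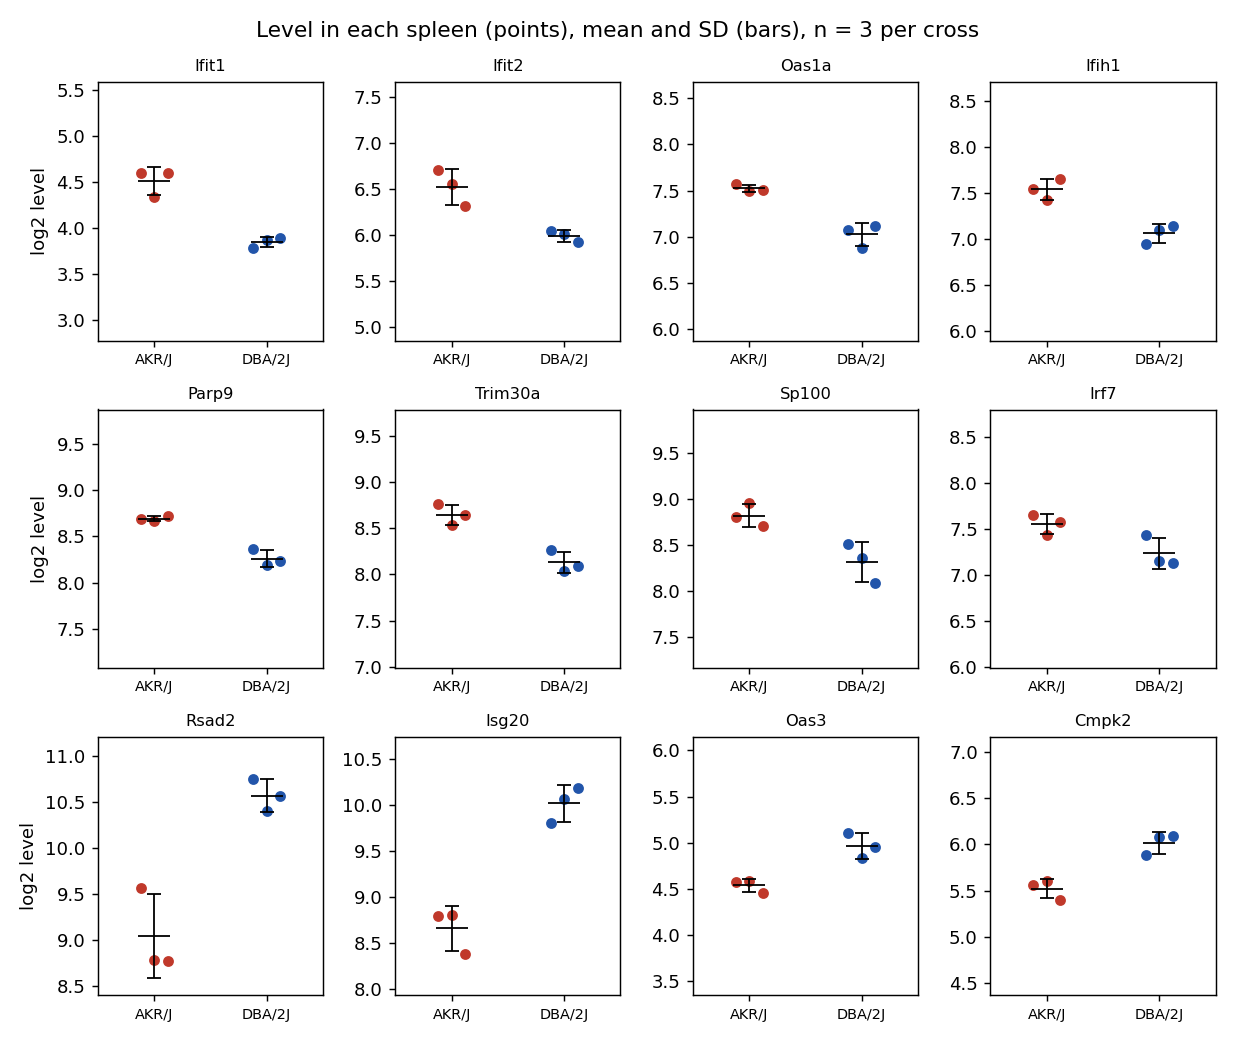
Level of 12 listed genes in each spleen (y axis, log2, each panel spanning the same 2.8 units), AKR/J F1 left in red and DBA/2J F1 right in blue, with the mean and SD (n = 3 each). Rsad2 and Isg20 show the widest gaps, with AKR/J F1 spleens lower, while the genes of the upper rows show narrow gaps with AKR/J F1 spleens higher.

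Genes of the ISG15, ubiquitin and ADP-ribose class gave calls at 6 of 12 probe sets, all toward AKR/J F1 spleens (50%, against 5.14% of all probe sets), with a median of 0.28, and 7 of the 12 had an unadjusted p under 0.05 in limma (30.7% of all probe sets did). Parp9, Dtx3l and Parp14 lie in a row on chromosome 16, and the first pair encodes a complex that ubiquitinates histones and viral proteins. Parp9 had levels of 8.69, 8.67 and 8.72 in AKR/J F1 spleens, against 8.36, 8.19 and 8.23 in DBA/2J F1 spleens (0.44 ± 0.08, adjusted p = 0.0202). The spread within AKR/J F1 spleens was a small part of the gap between the crosses. Dtx3l had levels of 8.31, 8.11 and 8.38 in AKR/J F1 spleens, against 7.71, 7.60 and 7.69 in DBA/2J F1 spleens at one probe set (0.60 ± 0.09, adjusted p = 0.0118), which passed whichever array was left out (up to 0.0495). At its brighter probe set the crosses overlapped (0.12 ± 0.10, adjusted p = 0.423). Parp14, a mono-ADP-ribosyltransferase, had 8.41, 8.39 and 8.35 in AKR/J F1 spleens, against 8.11, 7.84 and 7.78 in DBA/2J F1 spleens (0.47 ± 0.10, adjusted p = 0.0304), and 0.15 ± 0.20 at a dimmer probe set. The calls of Parp9 and Parp14 held without DBA/2J F1 replicate 1 and in no other fit with an array left out (adjusted p up to 0.0703 and 0.095).

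Trim30a, a TRIM protein that restrains Toll-like receptor signalling in mice, was higher in AKR/J F1 spleens at both probe sets. The brighter had levels of 8.76, 8.54 and 8.64 in AKR/J F1 spleens, against 8.26, 8.04 and 8.09 in DBA/2J F1 spleens (0.52 ± 0.10, adjusted p = 0.0202), and the other gave 0.47 ± 0.08 (adjusted p = 0.0174). Without AKR/J F1 replicates 1 or 3 or DBA/2J F1 replicate 3 both calls were lost (0.0511 to 0.0692), and the brighter was also lost without DBA/2J F1 replicate 2 (0.0706). Herc6, the ligase that attaches ISG15 in mice, passed at 1 of 4 probe sets (0.34 ± 0.09, adjusted p = 0.0447), a call lost without any array (up to 0.127), and the others ranged from -0.06 to 0.22. Usp18 removes ISG15 and damps receptor signalling, and it had levels of 6.19, 6.10 and 5.97 in AKR/J F1 spleens, against 5.86, 6.05 and 6.23 in DBA/2J F1 spleens. These values overlapped (0.04 ± 0.11, adjusted p = 0.849).

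None of the factors that carry the interferon signal to the promoter passed. Irf7, the master regulator of interferon alpha genes, had levels of 7.65, 7.43 and 7.57 in AKR/J F1 spleens, against 7.43, 7.15 and 7.13 in DBA/2J F1 spleens (0.31 ± 0.11, adjusted p = 0.094). Irf9, the DNA-binding part of ISGF3, had levels of 8.25, 8.16 and 8.07 in AKR/J F1 spleens, against 8.0, 7.72 and 7.75 in DBA/2J F1 spleens (0.33 ± 0.10, adjusted p = 0.0692). Stat2 gave 0.27 ± 0.11 and 0.33 ± 0.13 at its 2 probe sets (adjusted p = 0.133 and 0.12). All 4 probe sets of these 3 genes were positive and had an unadjusted p under 0.05, which 30.7% of all probe sets reached in either direction. Without DBA/2J F1 replicate 1, Irf7, Irf9 and the second Stat2 probe set passed (adjusted p = 0.0397, 0.0305 and 0.039).

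Among sensors of nucleic acid, 2 of 12 probe sets passed, both toward AKR/J F1 spleens (16.7%, against 5.14% of all probe sets), and 5 of 12 had an unadjusted p under 0.05, against 30.7% of all. Ifih1, which encodes the long double-stranded RNA sensor MDA5, had levels of 7.54, 7.42 and 7.65 in AKR/J F1 spleens, against 6.94, 7.10 and 7.14 in DBA/2J F1 spleens (0.48 ± 0.10, adjusted p = 0.0241). The crosses were separated, and the call held without AKR/J F1 replicate 2 or DBA/2J F1 replicate 1 (0.0561 to 0.0757 otherwise). Zbp1, a sensor of Z-form nucleic acid that triggers necroptosis, passed at 1 of 2 probe sets (0.37 ± 0.10, adjusted p = 0.0473), a call lost without any array (0.0633 to 0.127). Its brighter probe set gave 0.14 ± 0.10. Ddx58, the gene of RIG-I, had 3 probe sets with 0.21, 0.10 and 0.48, and the last came closest to the threshold (± 0.13, adjusted p = 0.0517). Dhx58, the gene of LGP2, had its only probe set above the dim range at 0.27 ± 0.09 (adjusted p = 0.0929). Its dim probe sets pointed in opposite directions, with 0.20 ± 0.09 and -0.21 ± 0.11, and neither passed (adjusted p = 0.165 and 0.245). Trim25, a ligase acting on RIG-I signalling, showed no call (0.18, 0.28 and 0.18). Its brightest probe set had levels of 9.34, 9.29 and 9.85 in AKR/J F1 spleens, against 9.09, 9.22 and 9.62 in DBA/2J F1 spleens, with replicate 3 the highest in either cross.

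Both nuclear body genes were higher in AKR/J F1 spleens, with 4 of 5 probe sets called (80%, against 5.14% of all probe sets) and a median of 0.58. PML organises nuclear bodies that silence viral genomes, and SP100 is a constituent of them. Sp100 had levels of 8.80, 8.95 and 8.70 in AKR/J F1 spleens, against 8.51, 8.36 and 8.08 in DBA/2J F1 spleens at its brighter probe set (0.50 ± 0.13, adjusted p = 0.0435), and 0.58 ± 0.12 at the other (adjusted p = 0.0279). The arrays did not overlap at either, and both calls held without DBA/2J F1 replicate 1 and in none of the other 5 fits (0.0519 to 0.115).

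The membrane and GTPase effectors had 1 call among 5 probe sets (20%, against 5.14% of all probe sets), that of Rtp4 described below. Mx1 and Mx2 are dynamin-like GTPases that block viral nucleocapsids, and many inbred mouse strains carry Mx1 alleles without a working product. Mx1 was dim, with levels of 4.51, 4.21 and 4.11 in AKR/J F1 spleens, against 4.01, 3.76 and 4.01 in DBA/2J F1 spleens (0.35 ± 0.13, adjusted p = 0.104). Mx2 had levels of 5.47, 5.43 and 5.63 in AKR/J F1 spleens, against 5.44, 5.33 and 5.53 in DBA/2J F1 spleens, which overlapped (0.08 ± 0.09). Ifitm3, which blocks viral fusion in endosomes, stood at 10.74, 10.74 and 10.80 in AKR/J F1 spleens, against 10.62, 10.49 and 10.65 in DBA/2J F1 spleens, a separation that did not pass (0.18 ± 0.08, adjusted p = 0.187).

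Of the remaining genes, Samd9l, a cytoplasmic restriction factor, had levels of 9.87, 9.85 and 9.72 in AKR/J F1 spleens, against 9.59, 9.34 and 9.39 in DBA/2J F1 spleens. Its difference was 0.37 ± 0.10 (adjusted p = 0.046), and it passed without DBA/2J F1 replicate 1 and in no other fit with an array left out (up to 0.131). Tor3a, an ATPase of the torsin family, passed at the brightest of its 3 probe sets, with 7.26, 7.00 and 6.93 in AKR/J F1 spleens, against 6.73, 6.60 and 6.42 in DBA/2J F1 spleens (0.48 ± 0.12, adjusted p = 0.0406). The other Tor3a probe sets gave 0.42 and 0.58, and the call was lost unless DBA/2J F1 replicate 1 was the array left out (up to 0.11). Epsti1 had 4 probe sets between -0.07 and 0.42, and Ifi35, a partner of NMI, had 3 between -0.02 and 0.26, none of which passed.

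The probe sets of 3 genes disagreed, meaning that a called probe set and another of the same gene differed by more than 0.5 in their fitted difference or passed in opposite directions. Xaf1, an interferon-induced promoter of cell death, was the extreme case. At its dimmer probe set Xaf1 had levels of 4.18, 4.03 and 4.39 in AKR/J F1 spleens, against 7.69, 7.30 and 7.49 in DBA/2J F1 spleens (-3.29 ± 0.13, adjusted p = 1.58e-05). The AKR/J F1 mean there, 4.20, lay under 4.33, the bound used for dim probe sets, so no exact fold is given. At the brighter probe set the order was turned round, with 8.24, 7.5 and 8.17 in AKR/J F1 spleens, against 7.17, 6.92 and 7.18 in DBA/2J F1 spleens (0.88 ± 0.19, adjusted p = 0.0288). The first call passed whichever array was left out, and the second held without AKR/J F1 replicate 2 or DBA/2J F1 replicate 1 (0.0662 to 0.0922 otherwise). No direction is given for Xaf1 as a whole.

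Pml was higher in AKR/J F1 spleens at 2 of 3 probe sets, which differed in size rather than direction. The dimmest had levels of 7.22, 7.05 and 6.78 in AKR/J F1 spleens, against 6.12, 6.16 and 5.75 in DBA/2J F1 spleens (1.0 ± 0.15, adjusted p = 0.00881). The next gave 0.64 ± 0.11 (adjusted p = 0.0172), lost without AKR/J F1 replicate 1 or DBA/2J F1 replicates 2 or 3 (0.0549 to 0.061). The brightest gave 0.24 ± 0.08 and did not pass (adjusted p = 0.0887), although its arrays did not overlap. Rtp4, a chaperone-like inhibitor of flavivirus replication, had levels of 7.82, 7.54 and 7.78 in AKR/J F1 spleens, against 7.03, 6.80 and 6.92 in DBA/2J F1 spleens at its brighter probe set (0.80 ± 0.10, adjusted p = 0.00648), and passed whichever array was left out. Its other, dim probe set stayed between 2.77 and 2.84 in all 6 arrays (-0.02 ± 0.07), near the bottom of the range.

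**Figure D4:**
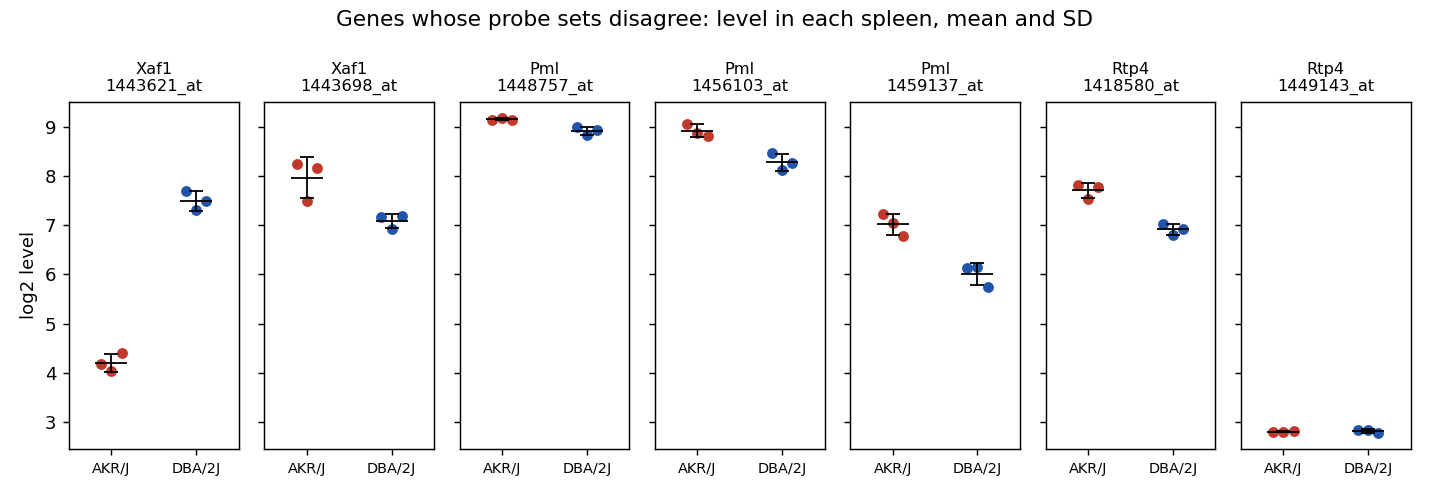
Level in each spleen (y axis, log2) at all 7 probe sets of Xaf1, Pml and Rtp4, AKR/J F1 left in red and DBA/2J F1 right in blue, with the mean and SD (n = 3 each). The Xaf1 probe sets order the crosses in opposite ways, the Pml probe sets differ in the size of the gap, and the second Rtp4 probe set lies near 2.8 in every array.

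Other genes of the pathway were read from the same fit. Of 122 probe sets of 70 such genes, 10 were higher in AKR/J F1 spleens (8.2%, against 5.14% of all probe sets). Only 14 of the 122 were dim. Among all probe sets at or above the 40th percentile of mean level, the share was 7.86%, close to 8.2%. Toward DBA/2J F1 spleens 3 were called, where 5.26% of all probe sets were, and 109 did not pass. The median was 0.14. With each array left out in turn, 2 to 11 passed toward AKR/J F1 spleens and 1 to 2 toward DBA/2J F1 spleens. The 33 probe sets of receptor and signalling genes gave 1 call, Stat3 at its brightest probe set (0.43 ± 0.07, adjusted p = 0.0158). The other Stat3 probe sets gave 0.23, -0.14 and -0.27 and did not pass, so that the probe sets of this gene disagree. The receptor chains Ifnar1 and Ifnar2 gave values from -0.06 to 0.24 and did not pass. Of 14 probe sets of sensor and adaptor genes 1 passed, that of the kinase gene Ikbke (0.59 ± 0.11, adjusted p = 0.0199), and of 12 probe sets of the other interferon regulatory factors 0 passed in limma (3 of 12 at an unadjusted p under 0.05, against 30.7% of all probe sets).

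The interferon genes themselves were near background, 5 of their 6 probe sets being dim. Ifna1 had levels of 4.25, 4.46 and 4.78 in AKR/J F1 spleens, against 5.23, 5.05 and 5.04 in DBA/2J F1 spleens (-0.61 ± 0.14, adjusted p = 0.0316). The dim probe set of Ifna2 gave -0.42 ± 0.09 (adjusted p = 0.0297). Interferon alpha genes are near-identical copies of each other, so that these probe sets may share signal. Ifnb1, at 3.46 on average, gave -0.24 ± 0.13 and did not pass (adjusted p = 0.257). Ifng, the type II interferon, had levels of 3.39, 3.47 and 5.77 in AKR/J F1 spleens, against 3.49, 2.91 and 3.13 in DBA/2J F1 spleens. The value of AKR/J F1 replicate 3 stood far above the others, the crosses overlapped, and the difference of 1.03 ± 0.56 did not pass (adjusted p = 0.247).

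Further interferon-induced genes gave 8 calls toward AKR/J F1 spleens among 57 probe sets (14%, against 5.14% of all probe sets). They gave 1 toward DBA/2J F1 spleens, where 5.26% of all probe sets were called. Bst2, the tether that holds budding virions, had levels of 8.22, 8.36 and 8.28 in AKR/J F1 spleens, against 7.74, 7.5 and 7.75 in DBA/2J F1 spleens (0.62 ± 0.10, adjusted p = 0.0116). Ifi27l2a gave 0.75 ± 0.11 (adjusted p = 0.0109) and the chemokine Cxcl10 0.77 ± 0.17 (adjusted p = 0.0328). Ube2l6, the conjugating enzyme of ISG15, ran the other way, with 6.64, 6.44 and 5.98 in AKR/J F1 spleens, against 7.61, 7.27 and 7.65 in DBA/2J F1 spleens (-1.16 ± 0.17, adjusted p = 0.0102). Calls between 0.38 and 0.57 were made for Trim34a, Phf11d, Slfn5, Ddx60 and Tdrd7 at 1 probe set each, passing in at most 1 of the 6 fits with an array left out. A second, dim Tdrd7 probe set gave -0.35 ± 0.09 (adjusted p = 0.0523), and the other probe sets of Trim34a, Slfn5 and Ddx60 gave -0.02 to 0.15. The calls of Bst2, Ifi27l2a and Ube2l6 passed whichever array was left out. Cxcl10 and Ikbke lost theirs in most such fits (adjusted p up to 0.103 and 0.0674), as did Stat3 and Ifna1 (up to 0.0571 and 0.0853), and Ifna2 lost its call in every such fit (0.0503 to 0.087).

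Markers of several spleen cell types, but not those of neutrophils, differed between the crosses too. The mean of 7 neutrophil genes was 8.3 to 9.06 in AKR/J F1 spleens, against 8.21 to 9.79 in DBA/2J F1 spleens, with 0 of 7 called. Over all probe sets, 5.14% were called higher in AKR/J F1 spleens and 5.26% higher in DBA/2J F1 spleens. The mean level of 9 T cell genes was 8.49 to 8.59 in AKR/J F1 spleens, against 8.01 to 8.05 in DBA/2J F1 spleens, with 9 of 9 called higher in AKR/J F1 spleens. The mean of 6 plasmacytoid dendritic cell genes was 8.38 to 8.57 in AKR/J F1 spleens, against 7.23 to 8.02 in DBA/2J F1 spleens, with 2 of 6 called at their brightest probe set. Klk1 in that list followed the acinar genes, with levels of 12.37, 12.43 and 12.61 in AKR/J F1 spleens, against 10.9, 11.75 and 6.55 in DBA/2J F1 spleens. Over the other 5 genes the mean was 7.57 to 7.80 in AKR/J F1 spleens, against 7.28 to 7.41 in DBA/2J F1 spleens. The mean of 9 macrophage and monocyte genes was 10.27 to 10.36 in AKR/J F1 spleens, against 9.95 to 10.07 in DBA/2J F1 spleens, with 3 of 9 called. The mean of 6 NK cell genes was 7.94 to 8.08 in AKR/J F1 spleens, against 7.47 to 7.71 in DBA/2J F1 spleens (3 of 6 called), and that of 5 conventional dendritic cell genes 6.98 to 7.06 in AKR/J F1 spleens, against 6.66 to 6.86 in DBA/2J F1 spleens (2 of 5 called). Toward DBA/2J F1 spleens, the mean of 8 erythroid genes was 8.09 to 8.74 in AKR/J F1 spleens, against 9.82 to 10.62 in DBA/2J F1 spleens, and that of 7 genes of dividing cells 7.37 to 7.92 in AKR/J F1 spleens, against 8.47 to 9.37 in DBA/2J F1 spleens. All 8 and all 7 were called, in the direction of Rsad2, Isg20 and Ube2l6. Within DBA/2J F1 spleens, replicate 1 was the lowest for both lists (9.82 and 8.47) and for Isg20 (9.80). It was the highest for Rsad2 at its brightest probe set (10.75) and lay between the others for Ube2l6 (7.61). No marker of these lists was dim at its brightest probe set. The mean of 6 B cell genes was 10.73 to 10.90 in AKR/J F1 spleens, against 10.41 to 10.71 in DBA/2J F1 spleens, with 2 of 6 called higher in AKR/J F1 spleens. The part of cell composition in the interferon gene differences was not tested.

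Within a cross the listed genes varied little. The SD over 3 arrays had a median of 0.11 in AKR/J F1 spleens (up to 0.61, at Rsad2) and 0.14 in DBA/2J F1 spleens (up to 0.37, at Tor3a). Replicate 1 held the highest value of its cross at 36 of the 71 probe sets in AKR/J F1 spleens and at 43 in DBA/2J F1 spleens. Averaged over the brightest probe set of each of the 38 genes, the level was 7.57, 7.46 and 7.49 in AKR/J F1 spleens, against 7.40, 7.27 and 7.33 in DBA/2J F1 spleens, so that the crosses did not overlap on this mean.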

How the data were processed

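Spleen RNA of 6 adult F1 females was measured on Affymetrix arrays, 3 per cross, with groups and replicate numbers taken from the sample titles. Per the labels' protocols, frozen tissue gave total RNA by Trizol, and biotin labelling followed the maker's procedure. The deposited values are log2 levels per probe set that the authors had already brought to a common scale: array medians lay between 5.04 and 5.10, and values ran from 1.81 to 14.56. RMA and MAS5 are both named, per the submitters' processing notes; which of them produced the values stays unknown. No detection calls came with the values, and precision is limited by having 6 arrays. Strain alleles that differ from the sequence a probe was designed on can bind it less well.

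Of 45101 probe sets, 64 controls were left out. Annotation gave 1 symbol to 34945, several to 932 and none here to 9160. All 71 listed probe sets matched the reference annotation (GRCm38.p6) by gene identifier, with 0 symbols changed. Differences were fitted with limma 3.58.1 (lmFit, eBayes) in R 4.3.3 on all 6 arrays with no covariate, adjusted over 45037 probe sets, at a threshold of 0.05. The fit was tested on simulated data with known differences. The residual degrees of freedom were 4, and no exact two-sided permutation test of 3 against 3 spleens can give a p under 0.1. Nothing in the labels says whether the 3 samples of a cross were kept or processed together. The p-values thus measure the spread between these samples, which may be technical. The members and gene lists were chosen with earlier results of these data known. All 40 listed genes could be named, with values by sample for their brightest probe set or, where that one did not pass, the brightest that did. Genes of the pathway list and markers were named where they passed or stood beside a member result. Promoters of Dtx3l, Oasl1 and Oasl2 were searched and are not shown. Alternatives were median centring, quantile normalization, leaving out dim probe sets, a trended robust variance model, weighted arrays, a block on replicate number and each array left out in turn.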

Additional observations from a re-analysis of the deposited data

How the results depend on the processing

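Under the 12 alternative fits, 0 of the 26 called differences changed sign. Toward AKR/J F1 spleens 19 probe sets of the list passed, and 12 after quantile normalization, 19 to 26 under the other 5 alternatives that keep all arrays, and 4 to 25 when 1 array was left out. Toward DBA/2J F1 spleens the count was 7, and 6 after quantile normalization and 5 to 6 when 1 array was left out. Over all probe sets, 2317 passed toward AKR/J F1 spleens, 1436 after quantile normalization and 514 to 2286 when 1 array was left out. Toward DBA/2J F1 spleens 2371 passed, 1755 after quantile normalization and 487 to 2507 when 1 array was left out. Median centring gave 3050 and 1878, against 2317 and 2371, so that the split leaned toward AKR/J F1 spleens. Other pathway probe sets gave 10 calls toward AKR/J F1 spleens (2 to 11 when 1 array was left out) and 3 toward DBA/2J F1 spleens (1 to 2). A distance of 1 between probe sets in place of 0.5 left 1 gene whose probe sets disagree, Xaf1, in place of 3.

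Differences that changed sign were all close to 0 and not called: Usp18 (0.04, against -0.01 after quantile normalization and -0.06 to 0.13 with 1 array left out), the dim Rtp4 probe set (-0.02, against 0.01 after median centring and 0.05 after quantile normalization) and, with 1 array left out, probe sets of Ddx58 (-0.03 to 0.27), Ifi35 (-0.05 to 0.00, and 0.01 after median centring), Parp14 (-0.10 to 0.30) and Epsti1 (-0.16 to 0.01). The cause of these changes was not tested.

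Samples with the same replicate number had deviations from their cross means that correlated at 0.201, 0.108 and 0.045, over probe sets. With unlike numbers the values ran from -0.16 to 0.056. Only DBA/2J F1 replicate 3 correlated best with another number, AKR/J F1 replicate 2 (0.056). The numbers were not taken to pair the samples in the main fit, and whether same-numbered samples share a batch is not known. With the replicate block, 21 listed probe sets passed toward AKR/J F1 spleens and 7 toward DBA/2J F1 spleens. A pseudocount was planned for linear values and was not run, since the values are logarithmic. Levels near background, such as Ifit1, Mx1 and the interferon genes, limit the size of difference that can be read.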
